A study of Mus musculus with 62 samples.

Results

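Macrophages and dendritic cells in mouse bladder tissue were followed through 35 genes, of 35199 gene entries in the 1-month tissue table and 34945 in the 5-day table. The genes were taken by symbol from a list of macrophage and dendritic cell genes, and all 35 were present in both tables. Messenger RNA had been sequenced in 62 mouse samples of a study of basal bladder cancer treated with rosiglitazone, which activates the nuclear receptor PPARG, and trametinib, which inhibits the kinase MEK. Of these, 17 samples in 5 groups were bladder tissue. BBN is a nitrosamine carcinogen that gives mice basal bladder tumours. The labels give the genotype of all tissue groups as WT, and no age, strain or sex. Tumour groups were vehicle for 1 month (3 samples), rosiglitazone+trametinib for 1 month (4 samples), vehicle for 5 days (3 samples) and rosiglitazone+trametinib for 5 days (4 samples). The vehicle was distilled water with 0.5% hydroxypropyl methylcellulose, 0.2% Tween 80 and 0.7% DMSO. The remaining group was bladder without BBN and without treatment (3 samples). The cultured line BBN963 is from a basal bladder tumour of a C57bl/6 WT mouse. It was used to see which of the genes tumour cells themselves carry and how these changed under the combination. There were 5 samples under DMSO and 5 under the combination for 72 h.

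Macrophages arise from embryonic precursors or from blood monocytes, depend on signals through the receptor CSF1R, and take up dead cells, microbes and lipids. Monocyte-derived cells that enter a tissue and macrophages long resident in it differ in surface receptors: CCR2 marks monocytes that respond to the chemokine CCL2, whereas CD163, FOLR2 and LYVE1 are typical of resident cells around vessels. Dendritic cells carry antigen to T cells and develop under the growth factor FLT3L. The type 1 subset takes antigen to CD8 T cells and expresses XCR1, CLEC9A and BATF3.

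The tissue label, urothelial cells of basal bladder cancer, is given to all 17 samples including those without BBN, yet leukocyte genes were measured in every one. The summed normalised value of the 35 genes was 814097 to 985883 in vehicle at 1 month, 65938 to 167472 after treatment and 199962 to 284066 without BBN. Of the 35 genes only Marco, a scavenger receptor, was at 0 in any tissue library. Normalised values are read counts that the authors scaled between libraries, so they compare a gene across the libraries of a table but not genes of different length. Estimated depth at 1 month was 73.9 to 77.3 M reads in vehicle, 44.8 to 62.1 M in treated tissue and 54.9 to 77.3 M without BBN. At 5 days it was 33.4 to 70.4 M in vehicle and 17.9 to 23.6 M in treated tissue. Every treated library was thus less deep than every vehicle library of its time, and the part of depth in the results was not tested. Nothing in the labels says that replicates were separate animals, so a p-value here reflects only how these samples vary, which may be technical. In bulk tissue, fewer cells of a type and less RNA per cell cannot be told apart.

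Some libraries stood apart from their group. The labels do not number replicates, so numbers here follow the order of the samples and serve only as names. Vehicle replicate 2 at 1 month had a mean log2 value of 6.13 over the scavenger and related receptors, against 10.20 and 10.14 in replicates 1 and 3. Its fibroblast genes averaged 10.71 against 13.48 and 13.50, and its neutrophil genes 11.47 against 8.77 and 7.47. Endothelial genes averaged 8.68 in it against 10.36 and 10.77, and smooth muscle genes 7.42 against 9.29 and 8.80. At 5 days, vehicle replicate 2 was also the lowest of its group for those receptors, at 5.62 against 8.71 and 7.97. Treated replicate 4 at 5 days was the highest of its group over all 35 genes, at 10.08 against 8.45 to 8.88. The part of these differences in the results below was not tested, and counts are given with and without these libraries.

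**Figure D1:**
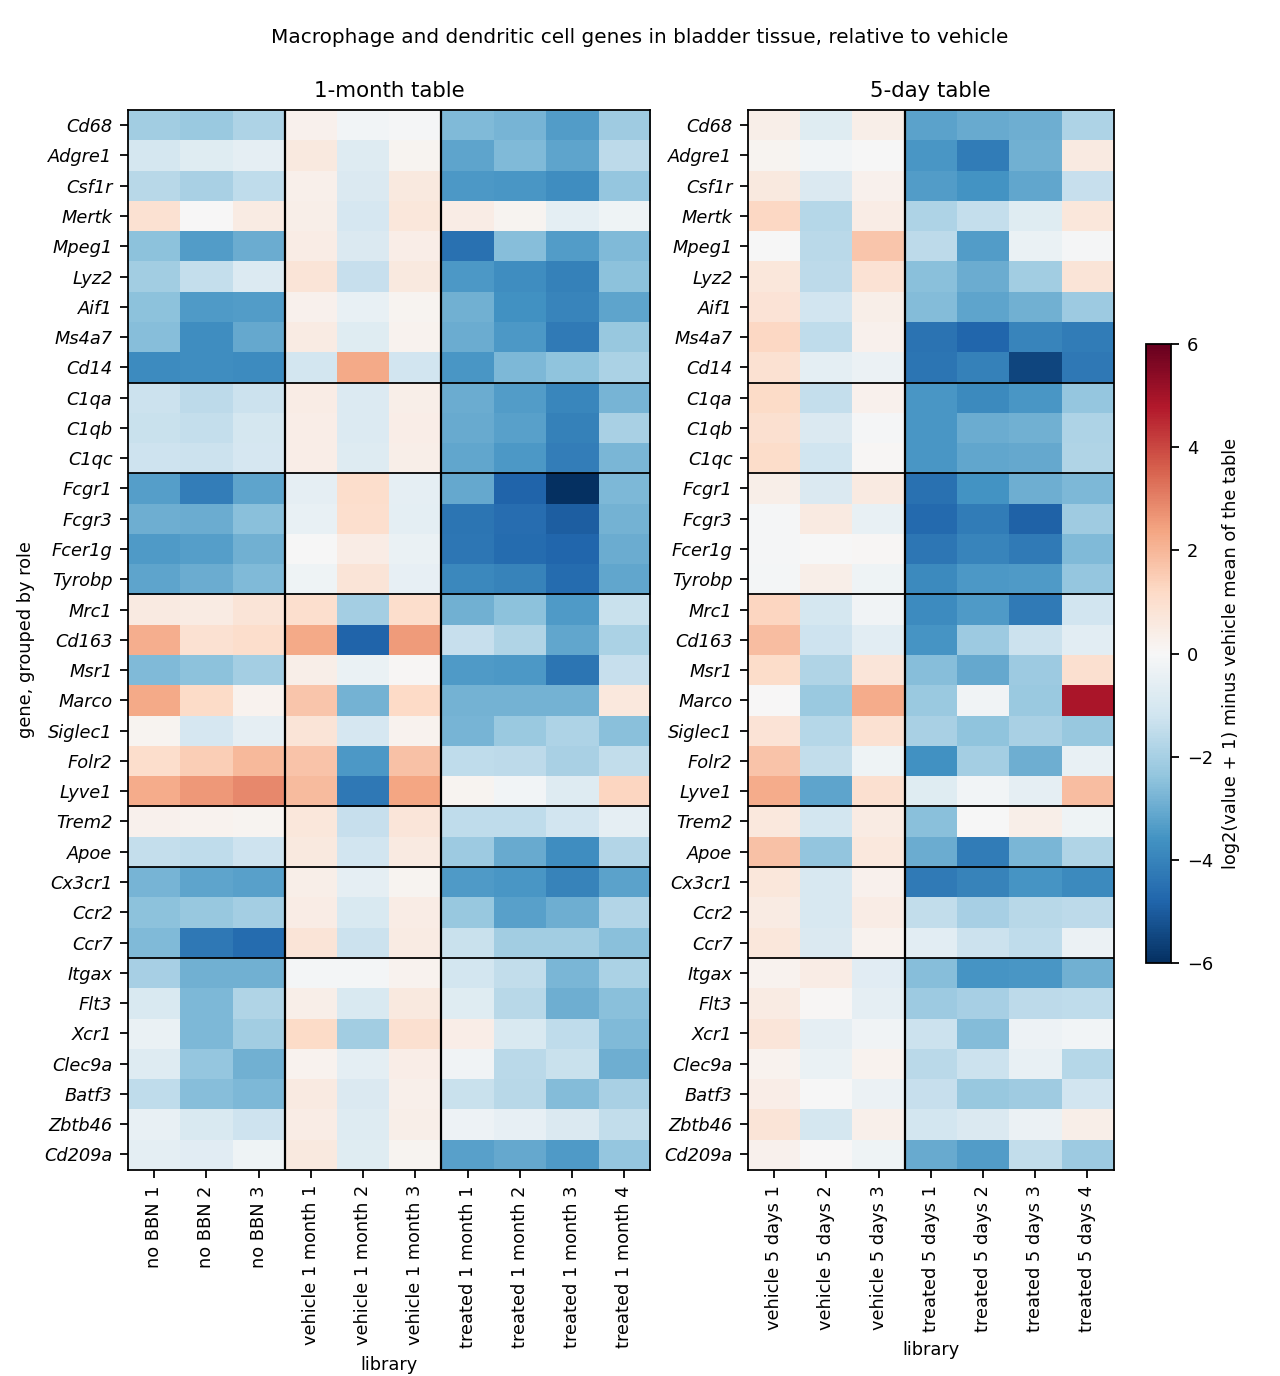
Each cell is log2(normalised value + 1) of a gene (rows, grouped by role) in a library (columns) minus the mean of the vehicle libraries of the same table, with red above and blue below vehicle. Treated libraries were below the vehicle mean for most genes at both times, and vehicle replicate 2 at 1 month was low for Cd163, Folr2 and Lyve1 and high for Cd14.

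Of the 18 members that fell in treated tumours at both times, 14 had a RefSeq promoter, of which 5 held a motif named below and 9 did not. Promoters are shown for all 5 with a match, the complement genes C1qb and C1qc, the lysosomal marker Cd68, the dendritic cell lectin Cd209a and the IgG receptor Fcgr1, and for the signalling adaptor Fcer1g as an example without one. They were thus chosen by their matches, and the share with a match among those shown means nothing. The sequences are from RefSeq on build GRCm38.p6, minus strand, and run from 250 bases before to 50 bases after the gene's start. Capitals mark matches to AGGAAGT, a motif of PU.1 (encoded by Spi1) and other ETS factors, in C1qb, C1qc and Fcgr1, and to GGAA and GAAA with any 2 bases between them, the composite element of ETS and IRF factors, in Cd68 and Cd209a. All matches here lie on the opposite strand to the motif as written.
C1qb, chr4:136886151-136886450: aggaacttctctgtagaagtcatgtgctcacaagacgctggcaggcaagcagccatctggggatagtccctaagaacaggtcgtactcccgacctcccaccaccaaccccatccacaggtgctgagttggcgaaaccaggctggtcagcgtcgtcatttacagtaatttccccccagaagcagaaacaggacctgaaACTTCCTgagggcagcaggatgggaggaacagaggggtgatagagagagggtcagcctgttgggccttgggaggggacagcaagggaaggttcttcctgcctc
C1qc, chr4:136892865-136893164: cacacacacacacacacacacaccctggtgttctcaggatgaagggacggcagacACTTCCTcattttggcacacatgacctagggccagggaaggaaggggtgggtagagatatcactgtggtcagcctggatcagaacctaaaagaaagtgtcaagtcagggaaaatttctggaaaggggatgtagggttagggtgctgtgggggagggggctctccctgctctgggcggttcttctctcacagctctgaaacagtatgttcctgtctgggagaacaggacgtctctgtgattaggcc
Cd68, chr11:69666121-69666420: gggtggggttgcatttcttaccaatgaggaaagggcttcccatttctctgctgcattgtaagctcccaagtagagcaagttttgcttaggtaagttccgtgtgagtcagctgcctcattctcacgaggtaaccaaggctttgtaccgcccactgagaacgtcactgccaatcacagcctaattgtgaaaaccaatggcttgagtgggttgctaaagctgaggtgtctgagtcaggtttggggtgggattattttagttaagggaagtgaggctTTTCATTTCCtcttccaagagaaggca
Cd209a, chr8:3748935-3749234: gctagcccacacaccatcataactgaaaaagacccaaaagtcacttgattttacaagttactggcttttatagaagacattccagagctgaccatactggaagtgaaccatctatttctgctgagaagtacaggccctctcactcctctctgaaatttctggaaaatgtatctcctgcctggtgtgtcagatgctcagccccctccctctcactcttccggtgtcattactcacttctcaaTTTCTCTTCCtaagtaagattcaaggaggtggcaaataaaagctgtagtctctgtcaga
Fcgr1, chr3:96293920-96294219: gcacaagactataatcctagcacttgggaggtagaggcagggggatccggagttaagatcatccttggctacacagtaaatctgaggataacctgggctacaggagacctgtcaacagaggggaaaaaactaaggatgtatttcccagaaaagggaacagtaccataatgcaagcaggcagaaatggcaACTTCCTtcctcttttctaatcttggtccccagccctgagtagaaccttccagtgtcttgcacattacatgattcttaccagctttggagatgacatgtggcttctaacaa
Fcer1g, chr1:171234300-171234599: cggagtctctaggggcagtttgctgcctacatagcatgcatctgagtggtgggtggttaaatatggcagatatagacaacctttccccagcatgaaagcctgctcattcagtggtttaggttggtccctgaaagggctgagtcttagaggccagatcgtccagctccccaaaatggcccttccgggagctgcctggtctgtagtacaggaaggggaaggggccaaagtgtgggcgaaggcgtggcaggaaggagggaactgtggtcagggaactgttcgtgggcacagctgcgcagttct
RefSeq promoters were at hand for 26 of the 35 genes. With both strands searched, AGGAAGT was in 6 of the 26 (C1qb, C1qc, Fcgr1, Folr2, Lyz2 and Mrc1) and in 10.7% of all genes. The composite element was in 3 of the 26 (Cd209a, Cd68 and Folr2) and in 3.16% of all genes. The motifs were chosen with the members known, and a match is a string of letters, not a shown binding site.

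The genes differed widely in level when values were divided by exon length. In vehicle at 1 month Lyz2, the lysozyme of macrophages and neutrophils, had the highest mean, 194551 ± 115556 per kb (SD, n = 3). Apoe, a lipoprotein of lipid-loaded macrophages and other cells, followed at 100613 ± 52251 per kb, and Cd14, a co-receptor for bacterial lipopolysaccharide, at 98248 ± 128928 per kb. The SDs hold differences between libraries that these 3 genes may share, so they do not settle the order of the 3, which was not tested within libraries. The signalling adaptors came next, Tyrobp at 46233 ± 22765 and Fcer1g at 27768 ± 8244 per kb, and then the complement subunits C1qb at 15462 ± 6265 and C1qa at 12750 ± 5311 per kb. The lowest were Clec9a, a dendritic cell receptor for dead cells, at 96.7 ± 31.9 per kb, Siglec1, a sialic acid receptor, at 59.9 ± 32.3 per kb, and Marco at 6.48 ± 5.85 per kb. Lyz2 has a near-identical neighbour, Lyz1, and Cd209a belongs to a family of similar genes, so reads may be split among copies and both are uncertain.

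The first comparison asked how these genes differed between BBN tumours under vehicle at 1 month and bladder without BBN, 3 against 3 samples. Tumours held more transcripts of the Fc receptor system, of chemokine receptors and of most core macrophage markers. Of the 35 genes, 18 rose and none fell at a limma adjusted p under 0.05, where 15.0% of the 18762 genes tested rose and 11.4% fell. Their median log2 fold change was 1.73, against -0.02 over all genes tested. In 21 of the 35 genes every vehicle sample was above every sample without BBN, which held for 22.4% of all genes.

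Cx3cr1, the fractalkine receptor of monocytes and macrophages, had values of 4304, 2327 and 3775 in vehicle and 479.3, 377.9 and 347.6 without BBN. The groups did not overlap, and the gene rose by 3.07 ± 0.30 (SE) on the log2 scale (adjusted p = 0.000127). Aif1, a cytoskeletal protein of activated macrophages, had values of 6988, 4191 and 6556 against 1032, 543.5 and 558.6, a rise of 3.08 ± 0.35 (adjusted p = 0.000237). Cd68 stood at 15583, 11731 and 12587 against 3136, 2843 and 3680, and rose by 2.04 ± 0.26 (adjusted p = 0.000426). In these genes all 3 tumours were high, replicate 2 the lowest of them. Fcer1g, the gamma chain that signals for Fc receptors, had values of 22927, 32051 and 17829 against 2212, 2398 and 3215 and rose by 3.19 ± 0.41 (adjusted p = 0.00054). Tyrobp, the DAP12 adaptor, had 23713, 48274 and 20525 against 3202, 3640 and 4581 and rose by 2.93 ± 0.39 (adjusted p = 0.000588). For these adaptors replicate 2 was the highest tumour. Itgax, the integrin CD11c of dendritic cells and some macrophages, rose by 2.59 ± 0.38 (adjusted p = 0.0011), from 1277, 677.2 and 669.3 without BBN to 4626, 4676 and 5836.

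By role, all 4 Fc receptors and adaptors, all 3 chemokine receptors and 6 of 9 core markers rose. Among the chemokine receptors Ccr7, which guides mature dendritic cells to lymph nodes, rose by 3.87 ± 0.61 (adjusted p = 0.0015) and Ccr2 by 2.25 ± 0.42 (adjusted p = 0.00386). C1qa and C1qc rose by 1.39 ± 0.36 and 1.17 ± 0.37 (adjusted p = 0.0172 and 0.0402), and C1qb, at 1.28 ± 0.47, was not called (adjusted p = 0.0721). Dendritic cell genes gave 2 of 7, Itgax and the transcription factor Batf3. Of the 7 scavenger and related receptors only Msr1, the scavenger receptor A of modified lipoproteins, rose, by 2.38 ± 0.60 (adjusted p = 0.016). Lyve1, Folr2 and Cd163 had differences of -2.57 ± 1.42, -1.50 ± 1.11 and -1.39 ± 1.59, none called. Genes of other leukocytes and of blood moved in the same comparison: all 12 T and NK cell genes, all 7 general leukocyte genes, 7 of 9 neutrophil genes and 4 of 5 red blood cell genes rose. Their part in the members' values was not tested. Neither lipid handling gene was called, Apoe at 1.39 ± 0.54 and Trem2, a lipid receptor of macrophages, at -0.21 ± 0.50.

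Without vehicle replicate 2, 24 members were called higher, and Lyz2, C1qb, Apoe, Flt3, Xcr1 and Zbtb46 joined the calls, with log2 fold changes of 1.27 (Zbtb46) to 2.77 (Xcr1). Calls were lost at adjusted p of 0.0507 to 0.118 for Csf1r, C1qa, C1qc, Fcgr1 and Msr1 without no-BBN replicate 2, at 0.0529 to 0.124 for C1qa, C1qc and Msr1 without vehicle replicate 1, and at 0.0571 to 0.113 for C1qa and C1qc without vehicle replicate 3. C1qc was also lost without no-BBN replicate 1 (Msr1 too, 0.0541 to 0.1) or 3 (0.0727), and Flt3 and Clec9a were called without no-BBN replicate 1, at log2 fold changes of 2.25 and 2.61.

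The next comparison asked what 1 month of rosiglitazone+trametinib did to these genes in tumours, 4 treated against the same 3 vehicle samples. Transcripts fell across the macrophage core, the complement subunits, the Fc receptors and the chemokine receptors. Of the 35 genes 26 fell and none rose, where 13.7% of all genes tested fell and 10.1% rose. Their median log2 fold change was -2.63, against 0.04 over all genes tested, and 34 of 35 values lay below 0. Every treated sample was below every vehicle sample for 24 of the 35 genes, which held for 17.1% of all genes.

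Among core markers 8 of 9 fell. Cd68 was at 2079, 1939, 1313 and 3010 after treatment, below all 3 vehicle values given above, and fell by 2.72 ± 0.24 (adjusted p = 0.00015). Aif1 was at 790.2, 470.2, 364.7 and 645.8, and fell by 3.40 ± 0.33 (adjusted p = 0.000196). Lyz2 had values of 366889, 82666 and 318534 in vehicle and 19506, 16285, 12812 and 39182 after treatment. The groups did not overlap, though vehicle replicate 2 was well below the other two, and Lyz2 fell by 3.41 ± 0.55 (adjusted p = 0.00205). The growth factor receptor Csf1r, the pore-forming Mpeg1 and the tetraspanin-like Ms4a7 fell by 3.25 ± 0.39, 3.25 ± 0.48 and 3.23 ± 0.48 (adjusted p = 0.000513, 0.00136 and 0.00137), and Adgre1, the F4/80 antigen, by 2.63 ± 0.41 (adjusted p = 0.00179). Mertk, a receptor for apoptotic cells, was the exception at -0.07 ± 0.41 (adjusted p = 0.925), with vehicle values of 1021, 407.3 and 1284 inside which the treated values of 1096, 896.3, 533.9 and 686.5 lay.

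All 3 subunits of C1q, the recognition molecule of the classical complement pathway, fell by similar amounts. C1qa had vehicle values of 16978, 6913 and 15889 and treated values of 1562, 1190, 818.9 and 1807, and fell by 3.26 ± 0.34 (adjusted p = 0.000251). C1qb fell by 3.07 ± 0.44 and C1qc by 3.36 ± 0.35 (adjusted p = 0.0012 and 0.000252). The genes of the subunits neighbour each other on chromosome 4, C1qb at 136880129 to 136886187, C1qc at 136889804 to 136893065 and C1qa at 136895917 to 136898803 (GRCm38). In each of the 3 genes treated replicate 3 was the lowest and replicate 4 the highest treated sample.

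The Fc receptor system gave the lowest fold changes of the 35 genes. Fcer1g was at 1182, 973.2, 868.3 and 2989 after treatment and fell by 4.16 ± 0.39 (adjusted p = 0.000183). Tyrobp was at 1955, 1753, 1183 and 3354 and fell by 3.90 ± 0.36 (adjusted p = 0.000183). Both stayed far below the lowest vehicle sample in every treated sample. The IgG receptors Fcgr1 and Fcgr3 fell by 4.23 ± 0.81 and 4.18 ± 0.50 (adjusted p = 0.00492 and 0.000542).

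All 3 chemokine receptors fell. Cx3cr1 was at 321.4, 298.5, 206.4 and 357.8 after treatment and had the lowest adjusted p of the members, 0.000125, with a fall of 3.53 ± 0.28. Ccr2 went from 11825, 4625 and 11714 to 1768, 914.5, 1145 and 2557, groups that did not overlap, and fell by 2.55 ± 0.40 (adjusted p = 0.00182). Ccr7 fell by 2.01 ± 0.57 (adjusted p = 0.0292).

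Dendritic cell genes were divided. Cd209a, the mouse DC-SIGN lectin of monocyte-derived and type 2 dendritic cells, had vehicle values of 4611, 1844 and 3440 and treated values of 317.4, 360.6, 288.1 and 611.6, and fell by 3.03 ± 0.34 (adjusted p = 0.000344). Itgax was at 2338, 1784, 758.7 and 1365 and fell by 1.80 ± 0.36 (adjusted p = 0.00627). Batf3 and the growth factor receptor Flt3 fell by 1.89 ± 0.46 and 1.96 ± 0.58 (adjusted p = 0.0149 and 0.0343). The type 1 receptors Xcr1, at -1.17 ± 0.91, and Clec9a, at -1.52 ± 0.67, and the dendritic cell factor Zbtb46, at -0.79 ± 0.36, were not called (adjusted p = 0.385, 0.128 and 0.136). Xcr1 ranged from 418.3 to 3838 in vehicle and from 279.2 to 2326 in treated samples, so that the groups overlapped.

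Of the 7 scavenger and related receptors 3 fell, and a further 3, Cd163, Folr2 and Lyve1, were called in the limma fits only without vehicle replicate 2. Mrc1, the mannose receptor, had vehicle values of 4597, 561.1 and 4705 and treated values of 307.6, 419.9, 214.3 and 903.8. Treated replicate 4 lay above vehicle replicate 2, and Mrc1 fell by 2.53 ± 0.71 (adjusted p = 0.0284). Cd163, the haemoglobin scavenger receptor, had vehicle values of 1512, 10.2 and 1867 and treated values of 35.6 to 119, at -2.05 ± 1.49 (adjusted p = 0.349). Folr2, the folate receptor beta, had 2449, 68.5 and 2538 against 195.1 to 273.8, at -1.62 ± 1.04 (adjusted p = 0.29). For these 3 genes the treated samples were below vehicle replicates 1 and 3, and for the last 2 of them above replicate 2. Without replicate 2, the hyaluronan receptor Lyve1 changed from 0.13 ± 1.33 to a called -2.01 (adjusted p = 0.00964), Cd163 was called at -4.46, Folr2 at -3.34, Trem2 at -1.88 and Zbtb46 at -1.18 (adjusted p = 0.000283, 6.97e-05, 0.000561 and 0.0208), and 31 members were called lower. The authors' deposited DESeq2 values kept replicate 2 and had Cd163 lower at -3.79, Folr2 at -2.78 and Trem2 at -1.40 (DESeq2 adjusted p = 0.00221, 0.00566 and 0.028). Lyve1 and Zbtb46 were not called in those values (DESeq2 adjusted p = 0.498 and 0.114). In the full limma comparison Msr1 and Siglec1 fell by 3.15 ± 0.56 and 2.35 ± 0.46 (adjusted p = 0.00364 and 0.00578). Marco, at most 34.27 in any library of the 1-month table, was not called at -1.98 ± 1.29. Apoe, at 285122, 86278 and 273933 in vehicle and 42327, 23070, 14481 and 56557 in treated samples, fell by 2.66 ± 0.50 (adjusted p = 0.0049).

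The calls of Cd14, Mrc1, Ccr7, Flt3 and Batf3 each rested on single libraries. Those of Cd14 and Mrc1 were also lost in the fit of these groups alone (adjusted p = 0.0612 and 0.0672) and in the second deposited 1-month table (adjusted p = 0.0605 and 0.066), each of which gave 24 members. Mrc1, Ccr7 and Flt3 were lost without vehicle replicate 1 (with Batf3, adjusted p of 0.0624 to 0.109) or 3 (0.0872 to 0.103). Without treated replicate 2 or 3 those 3 and Cd14 were lost (0.0595 to 0.0674 and 0.0503 to 0.0843), without treated replicate 1 Cd14 and Mrc1 (0.0626 to 0.0637), and without treated replicate 4 Ccr7 and Flt3 (0.064 to 0.073). Cd14 had vehicle values of 41673, 428013 and 40807 and fell by 2.62 ± 0.72 (adjusted p = 0.0255), to 8103, 14112, 16909 and 23798.

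**Figure D2:**
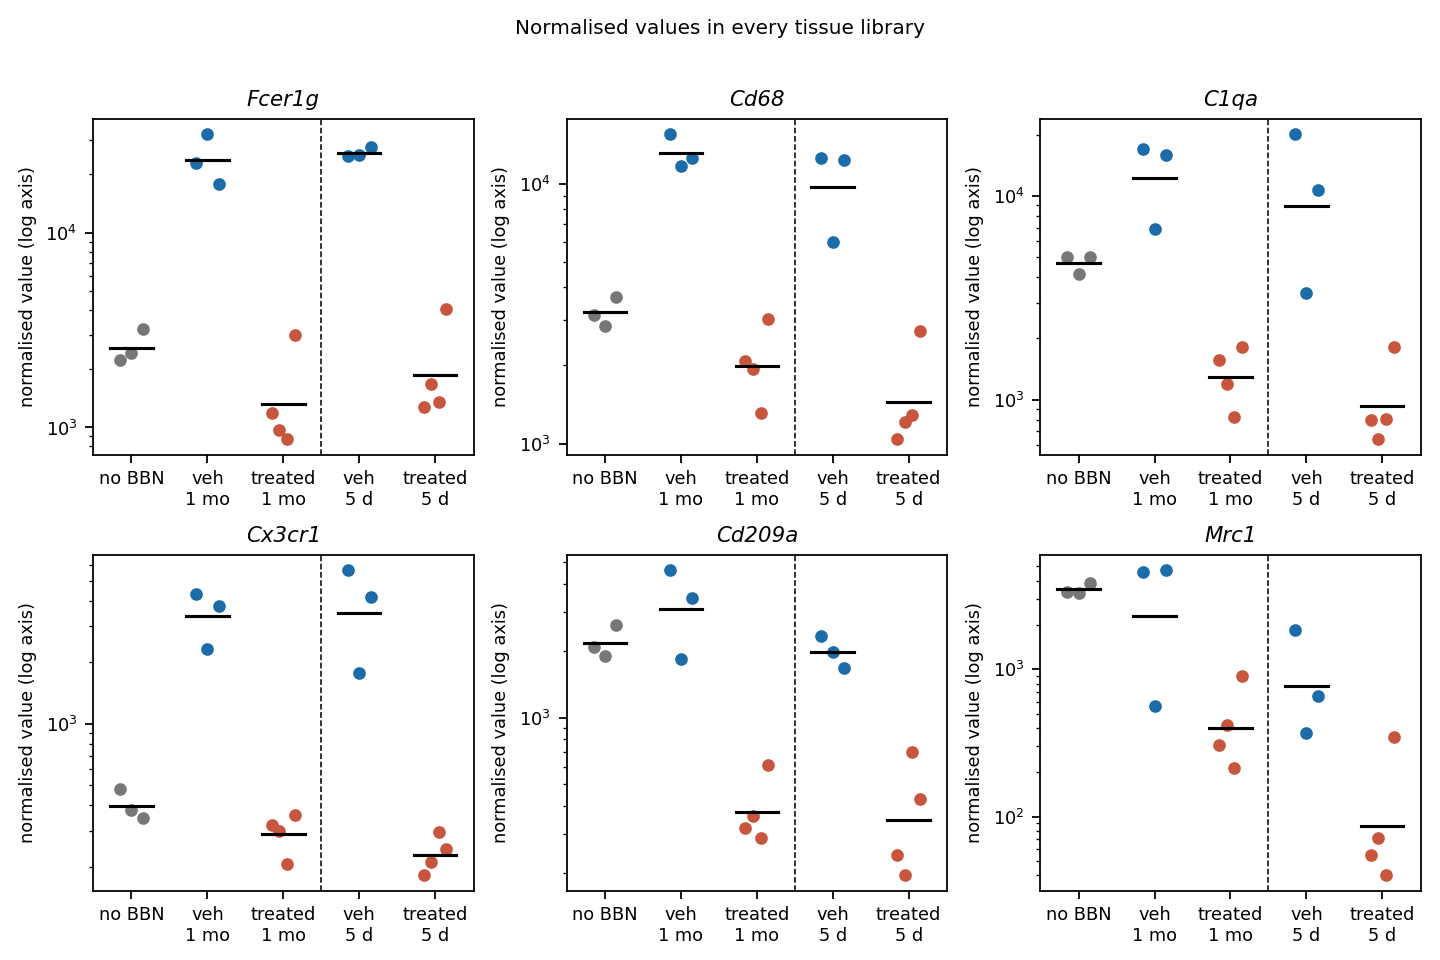
Points are normalised values of 6 genes in every tissue library on a log axis, bars are geometric means, and the dashed line separates the 1-month from the 5-day table, which were normalised separately. Treated libraries lie below all vehicle libraries of their table for Fcer1g, Cd68, C1qa, Cx3cr1 and Cd209a, while for Mrc1 vehicle replicate 2 at 1 month, at 561.1, lies among the treated values.

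Set beside bladder without BBN, tumours treated for 1 month had 5 of the 35 genes lower and none higher, where 1.44% of all genes tested were lower and 2.57% higher. The median was -0.97, against 0 over all genes tested. Cd209a had values of 2076, 1893 and 2610 without BBN and was lower by 2.52 ± 0.34 in treated tumours (adjusted p = 0.00636). C1qc, at 6273, 5914 and 7322 without BBN and 1671, 1337, 829.9 and 2179 in treated tumours, fell by 2.19 ± 0.35, and C1qa by 1.87 ± 0.34 (adjusted p = 0.0107 and 0.0164). For these 3 genes the groups did not overlap. Adgre1 and Mrc1 fell by 1.86 ± 0.41 and 3.13 ± 0.71 (adjusted p = 0.0338 and 0.0384). For Mrc1 the values without BBN were 3338, 3270 and 3871, close to those of vehicle replicates 1 and 3. Cx3cr1, Aif1 and Fcer1g had differences of -0.45 ± 0.28, -0.32 ± 0.33 and -0.97 ± 0.39, none called. This comparison shares its treated samples with the preceding one and its no-BBN samples with the first.

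The 5 calls moved with single libraries. Without treated replicate 1, 2 or 3 the calls of Adgre1 and Mrc1 were lost (adjusted p of 0.077 to 0.087, 0.0849 to 0.0912 and 0.083 to 0.0947), leaving 3, and the same pair was lost without no-BBN replicate 1 (0.0643 to 0.0912), where Ccr7 was called higher by 2.46. Without no-BBN replicate 2 or 3, C1qa and C1qc were lost as well (0.0514 to 0.134 and 0.06 to 0.155), and Cd209a was the single call. Calls over all genes also fell in these fits, from 753 to 136 and 160. Without treated replicate 4, 9 members were called lower, Csf1r, C1qb, Fcgr3 and Fcer1g in addition. With only these groups in the fit, which changes the estimate of the spread, 14 members were called, 13 lower and 1 higher.

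After 5 days, 4 treated and 3 vehicle samples from a table of their own were compared, and Fc receptors and adaptors and C1q subunits were again lower in full. Of the 34 genes that passed the filter on low values (Marco did not), 18 fell and none rose, where 5.48% of the 16891 genes tested fell and 0.699% rose. The median was -2.52, against 0.04 over all genes tested. For 21 of the 34 genes every treated sample was below every vehicle sample, which held for 13.0% of all genes. The 18 genes called at 5 days were all among the 26 called at 1 month, in samples that the 2 comparisons do not share. The same overlap was not counted over all genes, so it cannot be called particular to these members.

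Cx3cr1 was at 5631, 1770 and 4173 in vehicle and 181.6, 211, 295.3 and 244.5 after 5 days of treatment, and fell by 3.91 ± 0.39 (adjusted p = 0.0028). Cd14 went from 231426, 81095 and 94920 to 5782, 7199, 2639 and 6290, a fall of 4.56 ± 0.47 (adjusted p = 0.00287). In both genes the groups were far apart, without overlap. Fcer1g was at 24737, 25143 and 27387 against 1281, 1670, 1345 and 4080 and fell by 3.80 ± 0.39 (adjusted p = 0.00303), and Tyrobp was at 31811, 43924 and 29002 against 2456, 3165, 3293 and 6982 and fell by 3.23 ± 0.35 (adjusted p = 0.00371). Treated replicate 4 was the highest treated sample for both adaptors. Itgax fell by 3.12 ± 0.35 (adjusted p = 0.00396), from 5385, 6320 and 2860 to 784.5, 388.9, 409.9 and 621.7. Ms4a7 fell by 4.34 ± 0.59 (adjusted p = 0.00749), from 10425, 1526 and 5225 to 201.2, 158.1, 282 and 234.9.

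By role, all 4 Fc receptors and adaptors, all 3 C1q subunits, 5 of 9 core markers, 2 of 3 chemokine receptors and 4 of 7 dendritic cell genes fell at 5 days. C1qb fell by 2.80 ± 0.50, C1qa by 3.27 ± 0.62 and C1qc by 2.87 ± 0.58 (adjusted p = 0.0194, 0.0233 and 0.0312). Cd68 and Cd209a fell by 2.75 ± 0.40 and 2.52 ± 0.43 (adjusted p = 0.00892 and 0.017), and Ccr2 by 1.68 ± 0.36 (adjusted p = 0.0363). None of the 6 scavenger and related receptors tested was called, and neither lipid handling gene was. Msr1, one of these receptors, was at 4353, 583.3 and 3372 in vehicle and 343.2, 243.9, 445.4 and 3999 in treated samples, at -1.72 ± 1.09 (adjusted p = 0.407). Apoe ranged from 31450 to 545980 in vehicle and from 8944 to 46678 after treatment, at -2.93 ± 0.97 (adjusted p = 0.132). Lyz2 had 184378, 39288 and 214639 against 20382, 14622, 27144 and 198845, at -1.70 ± 0.99 (adjusted p = 0.364).

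Treated replicate 4 held the high values of Msr1 and Lyz2, and also 9573 for Adgre1, where the other treated samples had 358.8 to 897.4. Without it 19 members were called lower, Adgre1 at -3.53 and Mrc1 at -3.80 among them (adjusted p = 0.00405 and 0.0219), and Ccr2 was not (0.0652). Without vehicle replicate 2 there were also 19, with Siglec1 at -3.02 and Apoe at -4.11 called (adjusted p = 0.0101 and 0.02) and Batf3 lost (0.0849). Without vehicle replicate 1 only 7 were called, and Csf1r, Aif1, C1qa, C1qb, C1qc, Fcgr1, Fcgr3, Ccr2, Flt3, Batf3 and Cd209a were lost (adjusted p of 0.0524 to 0.151). Csf1r, Aif1, C1qa, C1qb, C1qc, Ccr2, Batf3 and Cd209a were lost without vehicle replicate 3 (10 called, 0.0517 to 0.125) or treated replicate 1 (10 called, 0.0502 to 0.0848). All of these but Cd209a were lost without treated replicate 3 (11 called, 0.0551 to 0.105), and all but Aif1 and Cd209a without treated replicate 2 (12 called, 0.0502 to 0.082). Calls over all genes fell in the same fits, from 1043 to 428 and 531 without vehicle replicates 1 and 3. They fell to 602, 813 and 589 without treated replicates 1, 2 and 3.

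**Figure D3:**
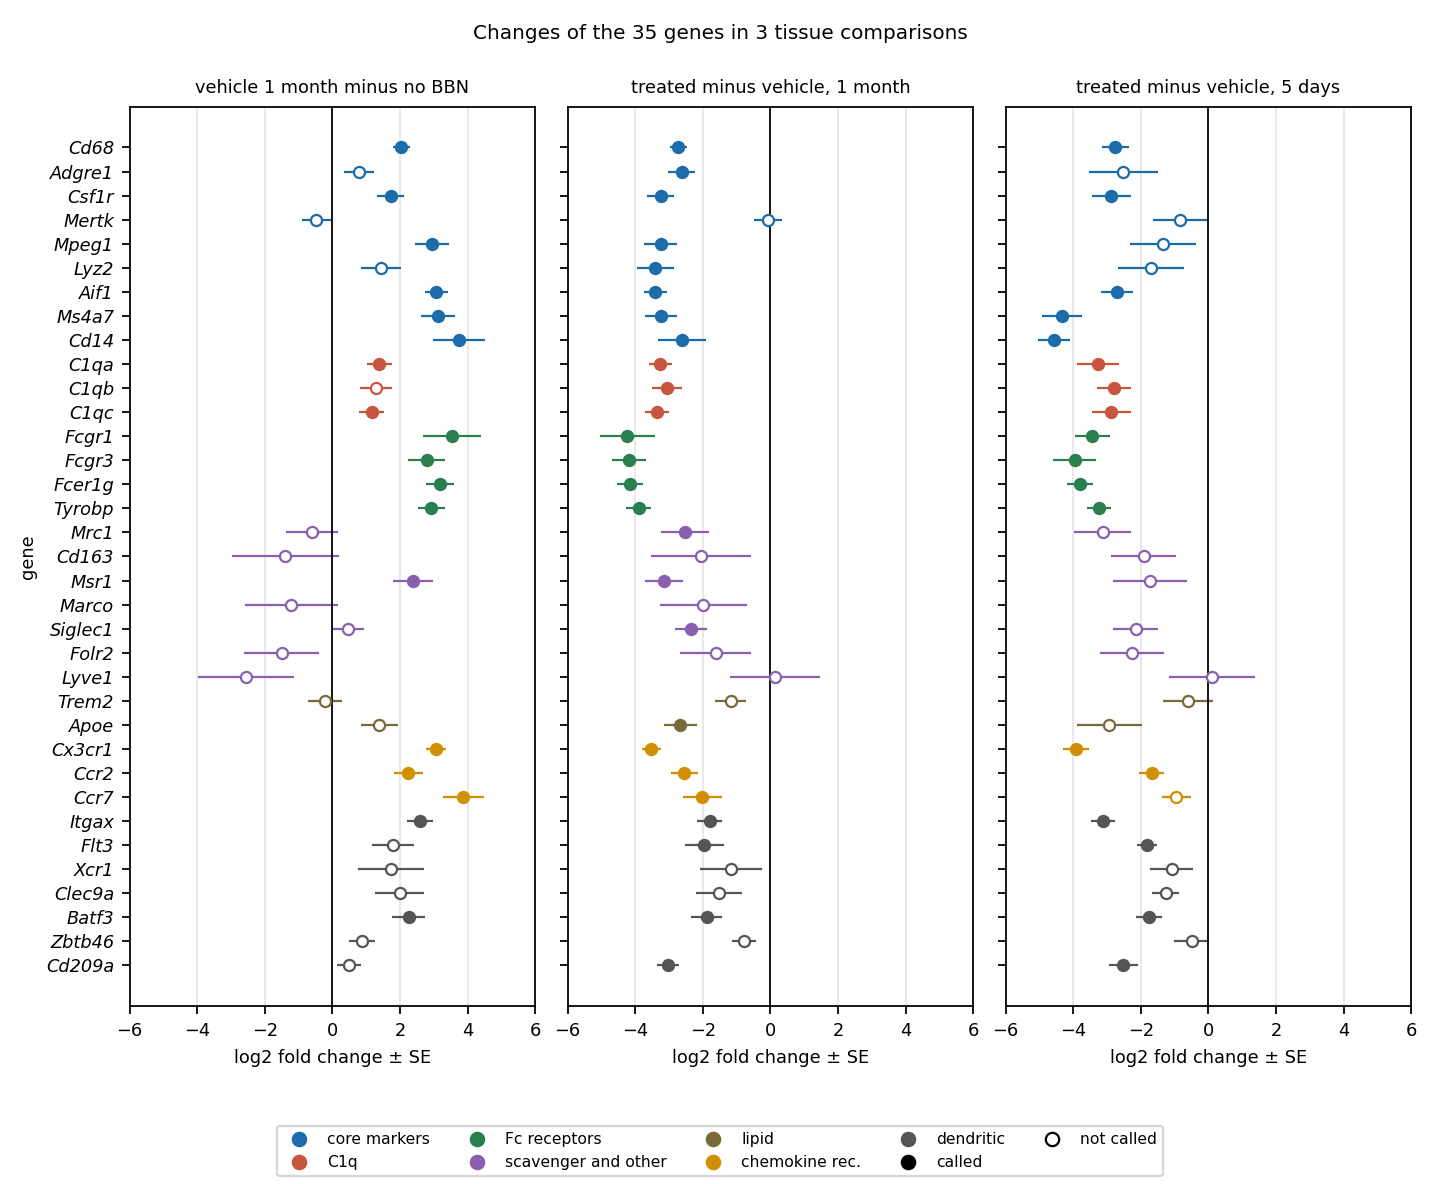
Log2 fold changes ± SE of the 35 genes in 3 comparisons, coloured by role, with filled points for genes called at an adjusted p under 0.05. Called members lie to the right of 0 in vehicle against no BBN (18 genes) and to the left in treated against vehicle at 1 month (26 genes) and 5 days (18 genes).

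The effects at 1 month and 5 days were then compared as a difference of differences over 19032 genes. None of the 35 members was called by limma, where 0.405% of all genes were, and 1 member had an unadjusted p under 0.05. The lowest adjusted p was 0.224, for Itgax, at 1.32 ± 0.54. The differences ran from -2.04 to 1.94 with a median of -0.22 and a median SE of 0.82, so the intervals of most genes are wide and do not show that the effects were alike. For Cd68 the difference was 0.03 ± 0.48 and for Cx3cr1 0.38 ± 0.49. Without vehicle replicate 2 at 1 month, Cd14 was called at 3.07 (adjusted p = 0.0249), its fall being smaller at 1 month than at 5 days.

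Genes that build or call in these cells were read from further lists. Over all genes tested, 13.7% fell and 10.1% rose at 1 month, and 5.48% fell and 0.699% rose at 5 days. These shares are the background for the counts of this paragraph and the next 2. Of 12 myeloid transcription factors 7 fell at 1 month and 3 at 5 days. Spi1, which encodes PU.1, the factor that directs macrophage development, fell by 3.16 ± 0.25 at 1 month and fell by 3.14 ± 0.36 at 5 days (adjusted p = 0.000125 and 0.00396), after a difference of 3.09 ± 0.27 between vehicle tumours and bladder without BBN. Irf8, needed for type 1 dendritic cells, fell by 1.62 ± 0.48 and 1.70 ± 0.16 (adjusted p = 0.0333 and 0.00207). Of 15 growth factors and chemoattractants tested, 5 fell and 1 rose at 1 month, and 5 fell and none rose at 5 days. The gene that rose was Kitl, the ligand of the receptor KIT, at 1.08 ± 0.19 (adjusted p = 0.00333), and 1 rise in 15 genes is near the background. Ccl2, the ligand of CCR2, fell by 3.18 ± 0.62 and 3.07 ± 0.63 (adjusted p = 0.00553 and 0.0312). Ccl8 and Ccl12, related monocyte chemoattractants, also fell at both times, Ccl8 at -3.71 ± 0.94 and -4.09 ± 0.46 and Ccl12 at -3.34 ± 0.73 and -4.36 ± 0.54. The macrophage growth factor Csf1 fell by 0.78 ± 0.22 at 1 month (adjusted p = 0.0264) and had -1.72 ± 0.44 at 5 days (adjusted p = 0.0679). Ccl12 and Csf1 were chosen after their values were seen. Tgfb1 is the gene of this list whose change differed between the times, at 1.32 ± 0.27 (adjusted p = 0.0457), with -0.57 ± 0.19 at 1 month and -1.89 ± 0.17 at 5 days. That call is among the 77 over all genes, a count that went from 0 to 292 as single libraries were left out.

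Other macrophage genes outside the 35 moved the same way. Of 25, 22 fell and 1 rose at 1 month, and 16 fell at 5 days. Ncf1, a subunit of the oxidative burst enzyme, fell by 2.87 ± 0.14 at 1 month (adjusted p = 9.78e-06). Gpnmb, a lysosomal glycoprotein also made by other cells, rose by 1.79 ± 0.18 (adjusted p = 0.000206), and Lilrb4a, an inhibitory receptor, fell by 4.29 ± 0.26 at 5 days (adjusted p = 0.000598). Of 17 other dendritic cell genes 9 fell and 1 rose at 1 month, and 4 fell at 5 days, Sirpa, a receptor of type 2 dendritic cells and macrophages, by 1.90 ± 0.23 and 2.61 ± 0.30 (adjusted p = 0.000583 and 0.00406). The gene that rose was Fscn1, an actin-bundling protein, at 0.86 ± 0.19 (adjusted p = 0.0095).

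Genes of other cells moved with the members. All 12 T and NK cell genes fell at 1 month, with summed values of 59751 to 105615 in vehicle and 3156 to 19134 in treated samples. At 5 days none of the 12 was called, with a median of 0.10 and overlapping sums of 18193 to 69329 and 11294 to 68684. The difference between times was called for 1 of these genes, Cd2, at -3.78 ± 0.72 (adjusted p = 0.0407). It was also called, lower, for 2 of the 7 genes shared by leukocytes in general. These calls are among the 77 over all genes, a count that went from 0 to 292 as single libraries were left out. Neutrophil genes gave 2 of 9 lower at 1 month (Csf3r and Retnlg) and 8 of 8 lower at 5 days, where their sums were 84258 to 206975 in vehicle and 1130 to 7391 in treated samples. All 8 mast cell genes fell at 1 month, with a median of -4.23, and Kit and Mcpt4 at 5 days, where the median was -5.09 and the sums were 7355 to 96459 in vehicle and 380.7 to 2753 in treated samples. All 7 genes shared by leukocytes in general fell at 1 month and 4 fell at 5 days. B and plasma cell genes gave 2 of 7 lower at 1 month (Cd79a and Cd79b) and none called at 5 days. All 5 red blood cell genes, a sign of blood in the tissue, fell at 1 month, with sums of 368180 to 729826 in vehicle, 37097 to 110443 in treated samples and 68673 to 234038 without BBN, and none was called at 5 days. No fibroblast, endothelial or smooth muscle gene was called at either time, and 2 of 7 epithelial genes rose at each, Krt19 with Cdh1 at 1 month and with Krt8 at 5 days. Fcer1g, Tyrobp, Lyz2 and Itgax, among others, are also expressed by neutrophils, NK cells or mast cells. In vehicle replicate 2 at 1 month, the highest of its group for neutrophil genes, Cd14 was at 428013 against 41673 and 40807. Fcgr3 was at 32191 there against 11613 and 10739, while Lyz2 was at 82666 against 366889 and 318534. How much these other cells add to the members' values was not tested.

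**Figure D4:**
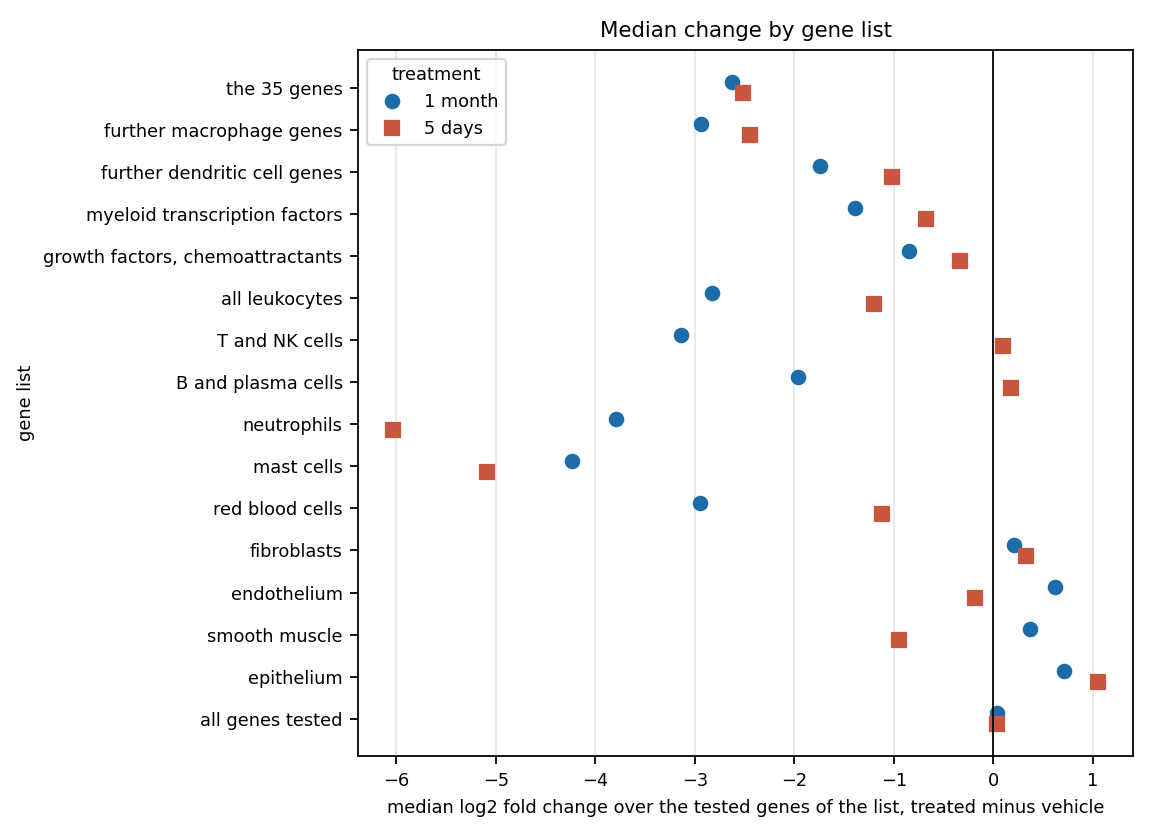
Median log2 fold change of treated against vehicle over the tested genes of each list at 1 month (circles) and 5 days (squares). The 35 genes had medians of -2.63 and -2.52, T and NK cell genes -3.14 and 0.10, neutrophil genes -3.79 and -6.03, and all genes tested 0.04 at both times.

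In BBN963 cells, a cultured tumour line, most of the members were at or near 0. The 3 C1q genes summed to at most 1.96 in a DMSO sample, Tyrobp, Msr1, Folr2, Clec9a and Cd209a were at 0 in all 10 samples, and 14 of the 35 genes passed the filter on low values. Cd14 was the most abundant, at 3536 to 4088 under DMSO and 3502 to 3886 under the combination, at -0.03 ± 0.05 (adjusted p = 0.56). The share that tumour cells add to the tissue value of Cd14 was not tested. Of the 14 genes 4 fell and 3 rose, where 36.2% of the 14220 genes tested fell and 36.3% rose, a share near the background.

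Directions in the cells were mixed. Cd68 rose by 1.06 ± 0.08 (adjusted p = 2.1e-08), from 311.9, 403.4, 336.3, 352.4 and 342.4 under DMSO to 825.8, 729.2, 680.8, 731.9 and 678.8. Csf1r rose by 2.54 ± 0.28 and Mpeg1 by 2.69 ± 0.30 (adjusted p = 1.6e-06 and 1.7e-06), both from values under 28 that are small beside those of tissue. All 5 treated samples were above all 5 under DMSO for these 3 genes, which held for 30.0% of all genes tested, and the same genes fell in tissue at 1 month. Mrc1 fell by 3.72 ± 0.17 (adjusted p = 1.97e-10), from 231.9, 231.3, 236, 217 and 242.8 to 12.7, 20.3, 11.8, 21.8 and 19.4. Flt3 fell by 1.88 ± 0.13, Batf3 by 1.31 ± 0.34 and Apoe by 0.73 ± 0.12 (adjusted p = 1.66e-08, 0.00342 and 0.000113).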

How the data were processed

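RNA of bladder tissue and BBN963 cells was purified with a miRNeasy micro kit, enriched for poly-A transcripts and sequenced as TruSeq libraries, per the labels' protocols. The authors deposited a normalised signal per gene and library in tables laid out as DESeq2 output, per the file headers. They also deposited log2 fold changes and adjusted p-values, per the file headers. In the authors' deposited table for 1 month 34 of the 35 genes had an adjusted p and 28 were lower, and in that for 5 days 33 had one and 22 were lower. The share of all genes that the authors' values call was not computed, so these counts have no background here. The submitters' processing notes name kallisto 0.44.0, bcl2fastq 2.19, DESeq2 and the builds GRCm38.p6 and mm10, while annotation and settings are not given in the sources used here. The scaling differed by gene as well as library, which kept whole reads from being recovered, and no count model was used.

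Values were analysed as log2(value + 1), and a gene was tested if at least as many libraries as its table's smallest group reached 10. Limma 3.58.1 in R 4.3.3 was fitted across all genes to all groups of a table at once, with a trended, robust variance. Adjusted p-values are Benjamini and Hochberg's over all genes tested, and a gene was called under 0.05. Fold changes on this scale understate those of low genes. The 1-month and 5-day tables were normalised separately, so only effects were compared between them. Depth was estimated from the lowest steps of the deposited values. Samples were grouped by their source names. The script was tested on simulated data.

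The 35 genes and all other lists were chosen with earlier results of these data known. All 35 genes could be named. Values in every library were given for up to 6 called genes with the lowest adjusted p in the commoner direction, up to 2 in the other, and the highest gene of each role. Of every other list, the 2 genes with the lowest adjusted p in a comparison could be named, and Gpnmb and Fscn1 were chosen after their values were seen. Left out were 1 entry of the 5-day table and 26 of the cell table that hold a date in place of a gene name. In 106 entries of the 1-month table, 0 of them members, the deposited mean was not that of the columns. Among well-expressed genes, 0.0% of values were equal between libraries. Single agents, retinoic acid and the second cell experiment were not used here. Gene positions and exon lengths are from GENCODE on GRCm38. Alternatives were quantile normalisation, other pseudocounts, no filter, no robust variance, fits of the compared groups alone, the second 1-month table, and each library left out.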

Additional observations from a re-analysis of the deposited data

Results flagged for a closer look

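Each of 97 groups of 4 or more values of a member gene was examined for a sample far from the others, and chance alone marks about 1 in 20 such groups. Marco was at 10.37 in treated replicate 4 at 1 month and at 0 in the other 3 treated samples of that time. Csf1r was at 77.63 in replicate 1 of BBN963 cells under the combination, below the 108.6 of the next lowest sample. No explanation was examined for either. Marco did not pass the filter at 5 days and was not among these groups. There it was at 139.4 in treated replicate 4 and at 0 to 2.964 in the other treated samples.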

How the results depend on the processing

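Other scaling (quantile normalisation), a pseudocount of 0.5 or 4, testing without the filter and a non-robust variance each left the count of called members within 1.5 times in all 6 comparisons, though without the filter C1qc was lost for vehicle against no BBN, Mrc1 for treated tumours against no BBN and Batf3 at 5 days (adjusted p = 0.0529, 0.0504 and 0.0523). With only the compared groups in the fit, treated tumours against no BBN gave 14 members (13 lower and 1 higher) and 1407 genes in place of 5 and 753. For the difference between times, quantile normalisation gave 169 called genes and no filter gave 36, in place of 77. Quantile normalisation moved the median of all genes to -0.15 for vehicle against no BBN, 0.13 for treatment at 1 month and 0.15 at 5 days, and the calls over all genes to 2386 higher and 2881 lower, 2695 higher and 2102 lower, and 249 higher and 785 lower, from 2816 and 2130, 1889 and 2575, and 118 and 925. The causes were not tested.

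Leaving out each library in turn, called members ranged from 13 to 24 for vehicle against no BBN, 22 to 31 for treatment at 1 month, 1 to 9 for treated against no BBN, 7 to 19 at 5 days, 0 to 1 for the difference between times and 7 to 8 in cells. All called genes ranged from 3217 to 5191, 3078 to 4737, 136 to 595, 428 to 1001, 0 to 292 and 10027 to 10598. No paired analysis was possible because the labels give no replicate numbers, and those used here only follow the order of the samples. With 3 or 4 libraries a group and low values of Marco, Siglec1 and Clec9a, small changes of these genes could not be detected. Larger changes of any member could be missed as well. In data simulated with the spread of the tissue tables, a log2 change of 2 was called for 61.2% of changed genes at 1 month and 50% at 5 days. A change of 3 was called for 80.2% at 1 month and 76.3% at 5 days. In the simulation only 100 genes were changed by each size, of 18530 tested at 1 month and 16722 at 5 days. In the data themselves 4464 and 1043 genes were called, so the threshold on the unadjusted p was less strict there. The simulated shares thus do not give the chance of missing a member.

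Of the single log2 fold changes of members under an alternative, 2407 kept their direction and their side of the threshold, 97 lost the call, 34 gained it and 109 changed sign. Of the 109, 1 was called in either fit, Lyve1 for treatment at 1 month without vehicle replicate 2. Quantile normalisation moved Mertk to 0.05 for treatment at 1 month, and Cd68 and C1qa to -0.06 and -0.09 for the difference between times, and Trem2 in cells from 0.02 to just below 0. The others arose on leaving out a library, given here with the range over the libraries left out. For vehicle against no BBN these were Mertk (-0.80 to 0.03), Mrc1 (-1.12 to 0.42), Cd163 (-2.67 to 1.02), Marco (-2.04 to 0.22), Folr2 (-2.38 to 0.22) and Trem2 (-0.58 to 0.49). For treatment at 1 month these were Mertk (-0.56 to 0.26) and Lyve1 (-2.01 to 1.33). For treated tumours against no BBN these were Mpeg1 (-0.55 to 0.09), Ms4a7 (-0.43 to 0.24), Fcgr1 (-1.20 to 0), Flt3 (-0.60 to 0.28) and Zbtb46 (-0.10 to 0.31). For treatment at 5 days these were Lyve1 (-1.48 to 1.21) and Trem2 (-1.16 to 0.03). For the difference between times these were Cd68 (-0.17 to 0.38), Adgre1 (-0.68 to 0.90), Csf1r (-0.82 to 0.11), C1qa (-0.57 to 0.72), C1qb (-0.75 to 0.16), C1qc (-1.05 to 0.09), Fcgr3 (-0.67 to 0.38), Fcer1g (-0.76 to 0.01), Mrc1 (-0.41 to 1.27) and Cd163 (-2.54 to 1.15). The rest for this difference were Siglec1 (-0.69 to 0.67), Folr2 (-1.08 to 1.51), Lyve1 (-2.12 to 1.62), Apoe (-0.60 to 1.45), Flt3 (-0.60 to 0.17), Xcr1 (-1.12 to 0.48), Clec9a (-0.71 to 0.21), Batf3 (-0.57 to 0.14) and Zbtb46 (-0.69 to 0.24). In cells this was Trem2 (-0.15 to 0.23).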

Other observations

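Among macrophage and dendritic cell genes outside the 35, some had a level in treated tumours unlike that of bladder without BBN. They were chosen after their values were seen. Ccl17 and Ccl22, the ligands of the T cell receptor CCR4 made by mature dendritic cells, rose by 4.37 ± 0.27 and 4.92 ± 0.58 on the log2 scale in vehicle tumours at 1 month over bladder without BBN (limma adjusted p = 3.52e-05 and 0.00033). After treatment for 1 month Ccl17 fell by 1.74 ± 0.25 (adjusted p = 0.00118), and Ccl22, at -1.53 ± 0.55, was not called (adjusted p = 0.0676). Both remained above bladder without BBN in treated tumours, by 2.63 ± 0.25 and 3.38 ± 0.55 (adjusted p = 0.00182 and 0.0115).

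Vsig4, Cd5l and Timd4 were lower than in bladder without BBN in at least 1 of the tumour groups. Vsig4, a complement receptor, was at -2.43 ± 0.59 in vehicle tumours and -3.89 ± 0.56 in treated tumours against bladder without BBN (adjusted p = 0.0132 and 0.00735). Cd5l, a secreted macrophage protein, was at -2.09 ± 0.53 and -2.20 ± 0.49 (adjusted p = 0.0153 and 0.0356). Timd4, a receptor for phosphatidylserine, was at 0.69 ± 0.48 and not called in vehicle tumours (adjusted p = 0.318), and fell by 2.21 ± 0.44 in treated tumours against bladder without BBN (adjusted p = 0.0238). Spp1, the secreted osteopontin of macrophages and tumour cells, was instead higher in vehicle tumours than in bladder without BBN, by 4.75 ± 0.47 (adjusted p = 0.000134). It fell by 2.46 ± 0.44 against vehicle after treatment for 1 month (adjusted p = 0.0035). In BBN963 cells under the combination Spp1 fell by 5.63 ± 0.05 (adjusted p = 1.19e-16).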
